A study of Mus musculus with 2 samples.

Results

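The cells described are T cells of the Ets1 conditional knockout (cKO) library, labelled as thymus. They carried Lgals3 transcripts and no Fxyd7 transcript. They numbered 530, which was 16.2% (95% interval 14.9 to 17.5) of the 3281 CD3-positive cKO cells and came from a series of 21308 cell barcodes. A member held at least 3000 UMIs (unique molecular identifiers, each counting 1 captured transcript), at least 500 genes and at most 10% mitochondrial UMIs. It also had at least 1 UMI of Cd3d, Cd3e or Cd3g, at least 2 of Lgals3, none of Fxyd7, Klrb1c, Ncr1, Izumo1r, Cd8b1 or Trav11, and under 3 in all of Ifit1, Ifit3 and Isg15. Members were thus selected on measured UMIs of these genes, so the levels of those genes are given as a description and carry no support. A comparison of the members with other cells of the same library likewise describes cells sorted by genes of the rule. These are Lgals3 for the cells without it and Fxyd7 for the Fxyd7-positive cells.

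YFP-positive thymus cells had been sorted from control mice (Tbx21Cre Rosa26-YFP+) and from cKO mice (Tbx21Cre Ets1F/F Rosa26-YFP+), and the series sets the 2 genotypes against each other in iNKT1 cells. Both genotypes carried the Cre recombinase driven by Tbx21, the gene of the T-box factor T-bet, and the YFP reporter, so YFP marks cells in which that Cre has been active, and floxed Ets1 was the allele that only the cKO mice carried. Each genotype was 1 library made from 2 pooled mice, whose cells are not separable. There is therefore no replicate check, no test was made, and every interval is an exact 95% interval that covers counting error only. The sources used here state no age for the mice.

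Galectin-3, the product of Lgals3, is a lectin that binds beta-galactoside sugars on glycoproteins and is often made by activated and effector lymphocytes and by macrophages. Fxyd7 encodes a small membrane protein of the FXYD family, whose proteins regulate the sodium-potassium pump. Invariant natural killer T cells of the iNKT1 type develop in the thymus, express T-bet, need IL-15 signals through Il2rb, and carry natural killer cell receptors of the Ly49 (Klra) and NKG2 (Klrc, Klrd, Klrk) families together with granzymes. Ets1 is an ETS family transcription factor, a family that recognises a GGAA core in DNA.

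The promoters of Lgals3 and of Klra5, the Ly49E receptor gene, are shown because Lgals3 defined the members and Klra5 was their most abundant marker of the Ly49 family. Both are RefSeq sequence of GRCm38.p6, 250 bases before to 50 after the start of the gene, 5′ to 3′ on the strand of the gene, with each GGAA or TTCC in capitals. The first lies at chr14:47373610-47373909 on the plus strand and the second at chr6:129913175-129913474 on the minus strand.
Lgals3: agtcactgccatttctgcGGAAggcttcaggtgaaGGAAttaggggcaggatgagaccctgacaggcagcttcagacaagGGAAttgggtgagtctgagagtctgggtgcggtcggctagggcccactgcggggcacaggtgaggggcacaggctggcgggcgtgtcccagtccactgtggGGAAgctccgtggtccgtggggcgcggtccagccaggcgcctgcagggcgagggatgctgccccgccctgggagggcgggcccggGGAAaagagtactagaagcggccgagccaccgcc
Klra5: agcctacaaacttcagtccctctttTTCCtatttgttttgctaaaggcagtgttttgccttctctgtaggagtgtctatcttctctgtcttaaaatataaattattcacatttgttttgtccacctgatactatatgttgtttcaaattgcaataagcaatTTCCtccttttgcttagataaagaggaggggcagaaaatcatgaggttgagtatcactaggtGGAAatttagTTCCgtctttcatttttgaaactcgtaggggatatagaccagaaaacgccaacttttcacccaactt
The Lgals3 window held 5 and the Klra5 window 4 matches of GGAA or its reverse complement TTCC, and 95.98% of 32851 such windows held at least 1. The longer ETS motif CCGGAA, or TTCCGG on the other strand, contains GGAA and stood in 14.9% of the windows. It was absent from both windows shown and from those of S100a4, Itm2a, Gzmb, Calca and Cxcr6. These letters say nothing on whether a factor binds there.

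The deposited cKO matrix totalled 39979742 UMIs in 11206 barcodes, the control matrix 35210431 in 10102. Past the filter were 3818 cKO cells (median depth 7212.5 UMIs) and 3502 control cells (median depth 6952). Over 10% mitochondrial UMIs were found in 6.76% of control and 28.6% of cKO barcodes. The libraries shared 29 barcode sequences, 2 of them among the members. Doublets were not called.

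Cells that met the rule made a larger share of the cKO library. In the control library 76 of 3395 CD3-positive cells met it, which was 2.24% (1.77 to 2.79). At least 2 Lgals3 UMIs were held by 2409 CD3-positive cKO cells (73.4%) and by 525 control cells (15.5%). Removing cells with Fxyd7 left 1076 of the cKO cells and all 525 of the control cells. The step that took most control cells was Klrb1c, the NK1.1 gene, after which 176 remained, against 980 in the cKO library. The share of members thus depends on several genes that differed between the libraries, besides Lgals3. The members held 2 to 67 Lgals3 UMIs with a median of 9, and the 76 control cells held 2 to 17 with a median of 3. Median depth was 6931.5 UMIs in members and 7038.5 in the control cells.

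T cell transcripts that the rule did not use were present in the members. All 10 T cell markers on the list, among them Trac, Lck and Thy1, were detected in the members, and their summed level was 4485 CPM (UMIs per 1000000 UMIs of the same cells), against 4769 in cKO cells without Lgals3 and 4887 in the control cells of the same rule. Trac, the constant segment of the alpha chain, stood at 826 CPM. Of the members, 13 had fewer than 3 CD3 UMIs, and the median was 32. Cd4 stood at 13.4 CPM and Cd8a at 4.47 CPM, so the coreceptor transcripts were scarce. A Trbv segment was seen in 99 members, and in 32 of them it was Trbv13-2 (32.3%, 23.3 to 42.5), a segment known from mouse iNKT receptors. It was seen in 17 of 97 Lgals3-negative cKO cells with a Trbv segment (17.5%, 10.6 to 26.6) and in 40 of 121 Fxyd7-positive cells (33.1%). In control cells of the same rule it was seen in 5 of 14 such cells (35.7%, 12.8 to 64.9). Among control Lgals3-negative cells it was seen in 130 of 364 (35.7%, 30.8 to 40.9). Since Trav11 was excluded by the rule, the members cannot be checked for the iNKT alpha chain.

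3 cell populations serve for comparison. The Lgals3-negative cKO cells were 363 CD3-positive cells with no UMI of Cd8b1, Lgals3 or Fxyd7. The rule's exclusions by Klrb1c, Ncr1, Izumo1r, Trav11 and the interferon genes were not applied to them, and 159 of them met these as well. Genes that go with the excluded ones can therefore be lower in members through the rule. The Fxyd7-positive cells were 710 cKO cells that met the rule except that they held at least 2 Fxyd7 UMIs. The last was the 76 control cells of the same rule, and values in 2012 control cells without Lgals3, Fxyd7 and Cd8b1 are given beside them. A gene counted as higher or lower when its CPM differed by at least 1.5-fold and reached 20 CPM in the higher population, leaving out the genes of the rule.

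The 4 markers beside Lgals3 were all higher in members than in Lgals3-negative cKO cells. Klra5 stood at 811 CPM in members (784 to 840), 684 in Fxyd7-positive cells, 147 in Lgals3-negative cells, 151 in control cells of the same rule and 193 in control Lgals3-negative cells. Socs2, an inhibitor of cytokine receptor signalling, stood at 179 CPM (166 to 192), 265, 36.6, 41.7 and 25.8 in the same order. S100a4, a calcium-binding protein linked to cell motility, stood at 1093 CPM (1061 to 1126), 832, 310, 683 and 150. For Klra5, Socs2 and S100a4 the cKO cells with Lgals3 were the high populations, with intervals apart from all other cells.

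Itm2a, a membrane protein gene induced in thymocytes during selection, stood at 294 CPM (278 to 311) in members and 350 in Fxyd7-positive cells. It stood at 155 CPM in Lgals3-negative cKO cells, 74.8 in control cells of the same rule and 70.8 in control Lgals3-negative cells. All cKO populations were above both control populations for Itm2a. Its 1.90-fold difference from Lgals3-negative cKO cells was the smallest of the 4 and did not pass the rule within the clusters described further on, at 330 and 294 CPM (ratio 1.12, 0.955 to 1.32). It turned to a log2 ratio of -0.46, short of the size rule, when cells with marks of other cell types were left out.

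**Figure D1:**
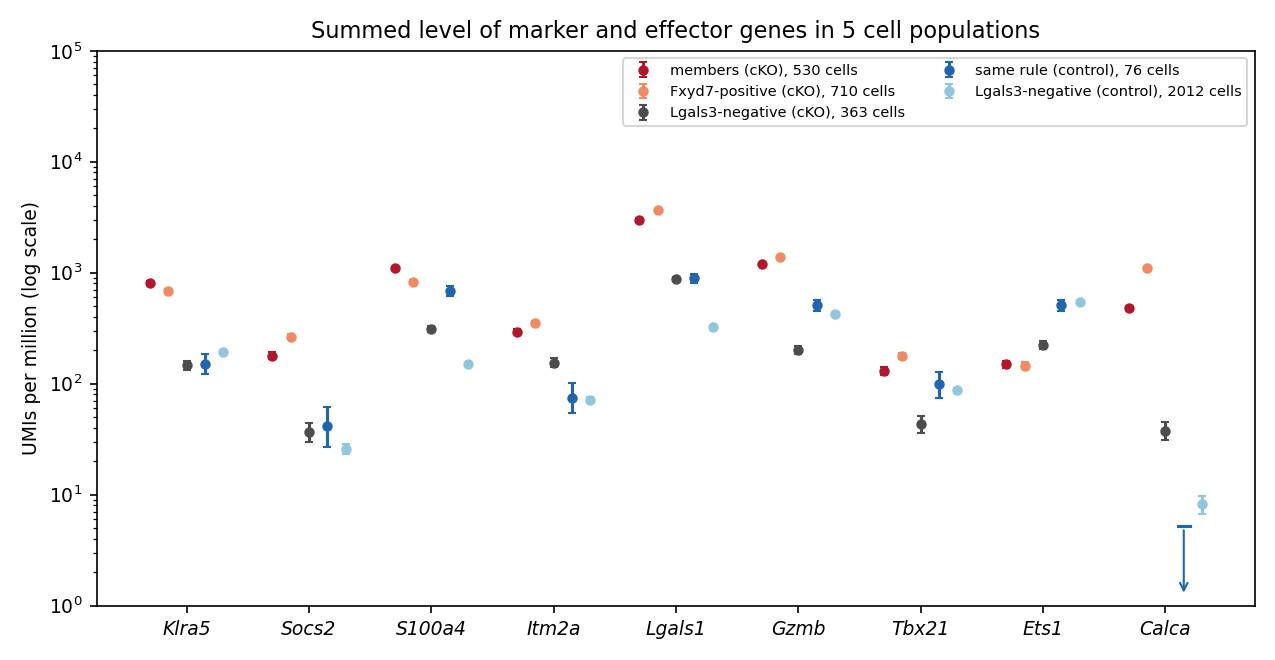
Level of 9 genes (x axis) in 5 cell populations, as summed CPM on a log axis, with bars for exact 95% counting intervals; the arrow marks a count of 0, drawn from the level of 3 counts. Klra5, Socs2 and S100a4 were highest in the cKO cells with Lgals3 (members and Fxyd7-positive cells), Ets1 was highest in control cells, and Calca had no UMI in the 76 control cells of the same rule.

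Single cells differed in which markers they carried. After each cell was thinned to 3000 UMIs, a Klra5 UMI was found in 55.1% of members (50.7 to 59.4; 59.4% unthinned) and in 11.6% of Lgals3-negative cells (8.47 to 15.3; 14.6% unthinned). In 239 cKO cells with B cell markers, which had a median of 10662 UMIs against 6931.5 in members, the thinned share was 4.18%. CD3-positive cells and members were not taken out of these 239, and doublets were not called. Of the 229 cells of cluster 14, a cluster led by B cell genes, 96 were CD3-positive. The shares in the B cell marker cells are therefore not a background free of T cell transcripts. The other shares in members were 62.1% for S100a4, 47.9% for Itm2a and 38.1% for Socs2, and in the B cell marker cells 6.69%, 5.02% and 2.51%. None of these 4 markers was seen in 41 members, 1 in 122, 2 in 185, 3 in 143 and all 4 in 39. In Lgals3-negative cells the numbers were 185, 129, 37, 8 and 4. The members were therefore not uniform in these genes at this depth, although most carried at least 1.

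The cells on either side of the Lgals3 threshold were as follows. The 41 cells with exactly 2 Lgals3 UMIs, just inside, had 442 CPM of Klra5, 1924 of Lgals1, 2448 of S100a6 and 110 of Itm2a. The 55 cells with 1 Lgals3 UMI and otherwise the same rule, just outside, had 336, 1238, 1724 and 191 CPM. Just inside, Klra5, Lgals1 and S100a6 were nearer to the level of all members, and Itm2a was farther from it.

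Against Lgals3-negative cKO cells, 566 of 6174 genes were higher in members (9.17%) and 599 lower (9.7%). These counts are read with the makeup of the 2 populations in mind. Among 16 numbered clusters of cKO cells, built without the genes of the rule, cluster 10 held 37.7% of members (200 cells), cluster 2 17.9%, cluster 8 14.2%, cluster 11 8.68% and cluster 1 7.55%. Of the Lgals3-negative cells 51.0% (185 cells) lay in cluster 13, led by Foxp3, Tnfrsf4, Ctla4 and Cd4, and 12.1% in cluster 14, led by B cell genes such as Cd79a and Ms4a1. Cluster 13 held 17 members and cluster 14 held 11. The Lgals3-negative population thus largely held other cells than the members did. Of its cells 64 had fewer than 3 CD3 UMIs. Of the genes past the rule 48.6% were higher, or 36.3% when mitochondrial and ribosomal protein UMIs were taken out of the scaling.

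**Figure D2:**
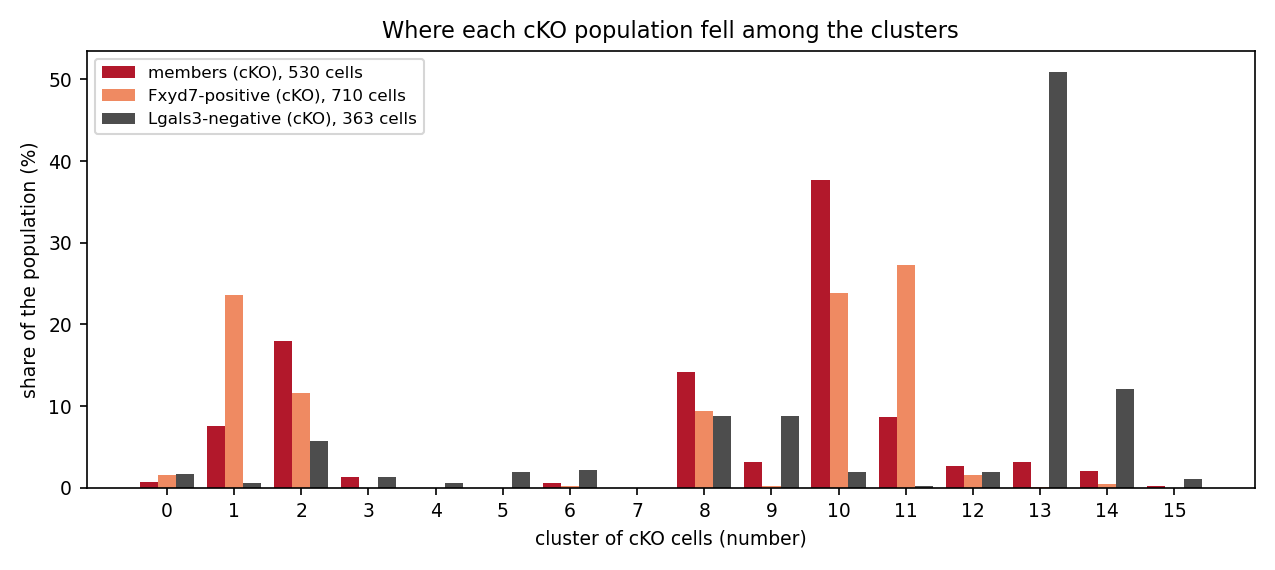
Share of each of 3 cKO populations (y axis, percent) that fell in each of 16 clusters (x axis, cluster number). Cluster 10 held 37.7% of the members, and cluster 13 held 51.0% of the Lgals3-negative cells.

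The same comparison was therefore also made inside clusters 1, 2, 8, 10 and 11, a choice made after the cluster values were seen. These held 456 members and 63 Lgals3-negative cells, and 761 of 5936 genes were higher (12.8%) and 471 lower (7.93%). Values from inside these clusters are given beside the others as within-cluster values. The clusters were pooled and not matched between the 2 populations. Of the 63 Lgals3-negative cells 32 lay in cluster 8, 21 in cluster 2 and 7 in cluster 10. Of the 456 members 75, 95 and 200 lay there in that order. Cluster 8 had Ccl4, Zbtb16 and Il4 among its leading genes. Within-cluster values can therefore still carry differences in cluster makeup, whose part was not tested.

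The galectin, S100, annexin and cytoskeleton genes differed in 1 direction. Of 22 genes 16 were higher in members and 0 lower, with a median log2 ratio of 0.73 against 0.04 over all genes. Within the clusters 12 of 21 were higher and 0 lower. S100a6, a calcium-binding protein, stood at 3292 CPM in members and 798 in Lgals3-negative cells, a 4.12-fold difference (3.95 to 4.31). Lgals1, which encodes galectin-1, stood at 2959 and 877 CPM. Anxa1, an annexin known for limiting inflammation, stood at 110 and 12.5 CPM, 8.64-fold apart (6.25 to 12.6). Within the clusters the ratios were 3.20 for S100a6, 2.20 for Lgals1 and 3.84 for Anxa1. In the control library, cells of the same rule also had more of these than Lgals3-negative cells, with 887 against 327 CPM of Lgals1 and 1577 against 525 of S100a6. Over all genes that control comparison had 345 of 5741 higher (6.01%) and 321 lower (5.59%), and 173 (3.01%) and 168 (2.93%) where the interval of the ratio also excluded 1.

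Natural killer receptor genes were higher as well. Of 16 that reached 20 CPM, 13 were higher and 1, Tyrobp, was lower. Klrc1, the NKG2A gene, stood at 117 CPM in members and 24.1 in Lgals3-negative cells, 4.85-fold apart. Klrd1, which encodes the CD94 partner of NKG2 receptors, stood at 997 and 233 CPM. Klrc2 stood at 127 and 28.5 CPM. Within the clusters 8 of 16 were higher and 2 lower, and the Klra5 ratio was 1.76 in place of 5.51. Klrc1 stood there at 136 and 44.4 CPM, the ratios were 1.95 for Klrd1 and 2.15 for Klrc2, and Tyrobp, at 14.0 and 13.2 CPM, did not pass the rule. Styk1, a receptor-like kinase gene that natural killer cells express, was 14.4-fold higher (10.6 to 20.5), at 197 against 13.6 CPM, and 7.02-fold within the clusters. Klra6, another Ly49 gene, was 1.94-fold higher in members overall but stood at 73.8 CPM in members and 140 in Lgals3-negative cells within the clusters.

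The cytotoxic genes split into a higher and a lower group. Of 16 that reached 20 CPM, 7 were higher and 4 lower. Gzmb, which encodes granzyme B, stood at 1192 CPM in members (1159 to 1226) and 201 in Lgals3-negative cells, a 5.94-fold difference that was 4.01-fold within the clusters. Nkg7 and Ctsw, both of cytotoxic granules, were 3.13-fold and 3.34-fold higher, but 1.60-fold and 1.39-fold within the clusters, where Ctsw did not pass the rule. The list there had 6 of 15 higher and 4 lower. Ccl4, a chemokine gene induced on activation, stood at 2.73 CPM in members and 238 in Lgals3-negative cells, 83.5 times lower. Its 703 UMIs in the Lgals3-negative cells lay in 10 cells, and 8 members held the 11 UMIs of the members. Its neighbour in function Ccl3 stood at 0.993 and 34.9 CPM, the latter from 8 cells. Gzma, the granzyme A gene, stood at 187 and 289 CPM overall but at 115 and 26.3 within the clusters, where it was higher in members. Inside the clusters Ccl4 and Ccl3 stood at 0.595 and 1.19 CPM in members and 1130 and 156 in Lgals3-negative cells. The latter rest on 687 of the 703 Ccl4 UMIs and on 95 Ccl3 UMIs, so they are not separate from the values above.

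Migration genes were higher in 13 and lower in 8 of 27. Cxcr6, a chemokine receptor of liver- and tissue-homing lymphocytes, stood at 604 and 118 CPM in members and Lgals3-negative cells. Ccr10, a receptor for epithelial chemokines that was not on that list, stood at 50.2 and 3.39 CPM, a 14.1-fold difference (7.88 to 31.3). Within the clusters the ratio was 2.12 for Cxcr6 and 6.33 (2.72 to 26.4) for Ccr10, and 9 of 24 genes of the list were higher and 3 lower. Itgax, the CD11c integrin gene, stood at 52.1 and 9.83 CPM, and S1pr5, a sphingosine phosphate receptor gene, at 46.9 and 9.15 CPM. The lymph node homing receptor gene Ccr7 was lower, at 1.99 and 85.4 CPM. Within the clusters Ccr7 was near 0 in both populations, at 0.298 and 0 CPM.

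**Figure D3:**
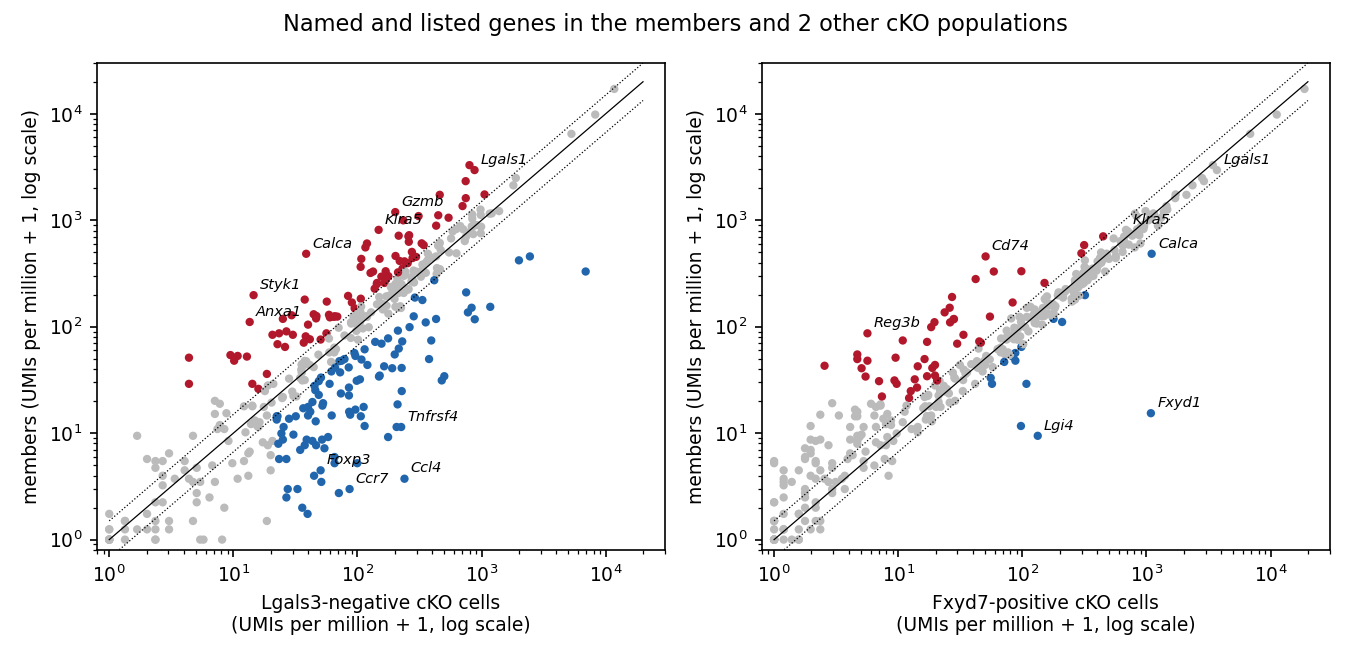
Level in members (y axis) against the level in Lgals3-negative (left) and Fxyd7-positive (right) cKO cells (x axis) for the named and listed genes, as CPM plus 1 on log axes; red is higher and blue lower in members by the size rule, and dotted lines mark 1.5-fold. Styk1, Calca, Gzmb and Klra5 lay above the lines on the left, while Fxyd1, Lgi4 and Calca lay below them on the right.

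Of cytokine receptor and signalling genes 8 of 20 were higher and 7 lower, and within the clusters 6 of 16 were higher and 0 lower. Il2rb, the IL-2 and IL-15 receptor chain gene, stood at 626 CPM in members and 258 in Lgals3-negative cells. Il12rb2 stood at 89.4 and 25.8 CPM, and Ifngr1, an interferon gamma receptor gene, at 888 and 430 CPM. Within the clusters the ratio was 1.57 for Il2rb and 1.83 for Il12rb2, in place of 2.42 and 3.45. Socs3, the related inhibitor gene, was lower, at 17.1 and 51.2 CPM, but did not pass the rule within the clusters, at 12.8 and 19.7. Of the interferon-stimulated genes outside the rule 0 of 10 were higher and 9 were lower, and the rule removed interferon-responding cells from the members but not from the Lgals3-negative cells.

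Among lymphocyte transcription factors 6 of 23 were higher and 7 lower. Tbx21 stood at 130 CPM in members (119 to 141) and 43.4 in Lgals3-negative cells. Id2, an inhibitor of E proteins, was 3.77-fold higher, and Rora 1.73-fold. Within the clusters the ratio was 1.62 for Tbx21 and 1.59 for Id2, and 7 of 23 genes of the list were higher and 5 lower. Id3, Tcf7 and Eomes were lower, at 13.7, 71.8 and 7.70 CPM in members against 61.0, 228 and 38.0. Within the clusters Id3 was lower, at 0.595 and 26.3 CPM, while Tcf7 at 61.9 and 88.8 and Eomes at 2.38 and 9.87 did not pass the rule. Zbtb16, the PLZF gene of innate-like T cells, stood at 43.5 and 34.6 CPM overall and at 48.8 and 137 CPM within the clusters, where it was lower in members. The Lgals3-negative cells there held 154 UMIs of Izumo1r, a gene that the rule kept at 0 in members. The part of such cells in the lower Zbtb16 and Id3 was not tested.

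Among the other lists, oxidative phosphorylation had 0 of 20 and glycolysis 0 of 11 genes past the rule in either direction. Of genes induced by T cell receptor signals 3 of 23 were higher and 7 lower, and within the clusters 1 and 7 of 23. Of regulatory T cell markers 6 of 7 were lower, with Foxp3 at 3.48 CPM in members and 49.5 in Lgals3-negative cells. B cell markers were lower in 9 of 9 and gut epithelium markers in 15 of 17. Tnfrsf4, the OX40 costimulatory receptor gene, stood at 10.4 and 224 CPM, and gut genes such as Agr2 and Spink4 at 30.3 and 33.3 CPM in members against 477 and 500. Within the clusters none of these 3 passed the size rule, with 19 and 0 UMIs of Agr2, 54 and 5 of Spink4 and 9 and 1 of Tnfrsf4 in members and Lgals3-negative cells. Of T cell receptor complex genes 1 of 18 was higher and 2 lower, of costimulation genes 1 of 14 and 5, and of actin and Rap regulators 1 of 14 and 2. Of iNKT1 markers 6 of 10 were higher and 0 lower, and within the clusters 6 and 2 of 10. The 2 lower there were Xcl1, at 263 CPM in members and 808 in Lgals3-negative cells, and Ccl5, at 510 and 846. Higher overall were among others Klrd1, Nkg7, Tbx21 and Il2rb.

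Transcripts of other cell types were present among the members. The B cell list, detected in full at 9 of 9 genes, summed to 750 CPM in members, 9231 in Lgals3-negative and 216 in Fxyd7-positive cells. In the gut epithelium list 18 of 18 genes were detected and summed to 741, 3277 and 146 CPM. Of the myeloid or dendritic list 11 of 14 genes were detected, at 1069, 4495 and 430 CPM, and the defining markers Csf1r, Flt3 and Siglech were at 0 in members. Few cells carried most of these UMIs: 9 members with over 1% of their UMIs on the B cell list held 77.9% of that list, 7 members held 86.7% of the gut list and 10 held 67.2% of the myeloid list. Of 8 gamma-delta T cell markers Scart1 was not among the features, and of the other 7 all but Trdv4 were detected. Trdc, the delta chain gene, was seen in 1.13% of thinned members. Against Lgals3-negative cells, of 5 that reached 20 CPM 3 were higher (Tcrg-C2, Tcrg-C4 and Tcrg-C1) and 2 lower (Trdc and Blk). Within the clusters 0 of 6 were higher and 4 lower. The erythroid list summed to 0.248 CPM and the stromal list to 16.6. The cKO library also held whole clusters led by gut genes. These were cluster 3 with 174 cells (Fabp6 and Reg3b), cluster 4 with 71 (Olfm4 and Lgr5) and cluster 5 with 125 (Defa5 and Defa17). They held 7, 0 and 0 members. How gut cells came into a library labelled as thymus, and their part in the genotype differences, was not tested.

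The members varied with their Lgals3 level. They were split by Lgals3 UMIs per 10000 into a low, a middle and a high group of 177, 176 and 177 cells. Lgals1 stood at 2270, 2912 and 3776 CPM from the low to the high group. S100a4 stood at 752, 1060 and 1508 CPM, Gzmb at 846, 1172 and 1599, and Rora at 140, 176 and 236. Klra5 did not follow that order, at 639, 981 and 835 CPM. Ets1, at 143, 163 and 142 CPM, and Zbtb16, at 42.9, 43.4 and 44.1, did not separate beyond their intervals.

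Markers of other cells went the opposite way and lay mostly in the low group. Cd74, the invariant chain of MHC class II, stood at 1235, 29.4 and 10.8 CPM, the goblet cell gene Zg16 at 248, 65.9 and 20.1, and Trdc at 92.7, 1.55 and 0 CPM. Median depth was 7280, 6726.5 and 6924 UMIs. The part of these cells in the trends of Lgals1, S100a4 and Gzmb was not tested.

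**Figure D4:**
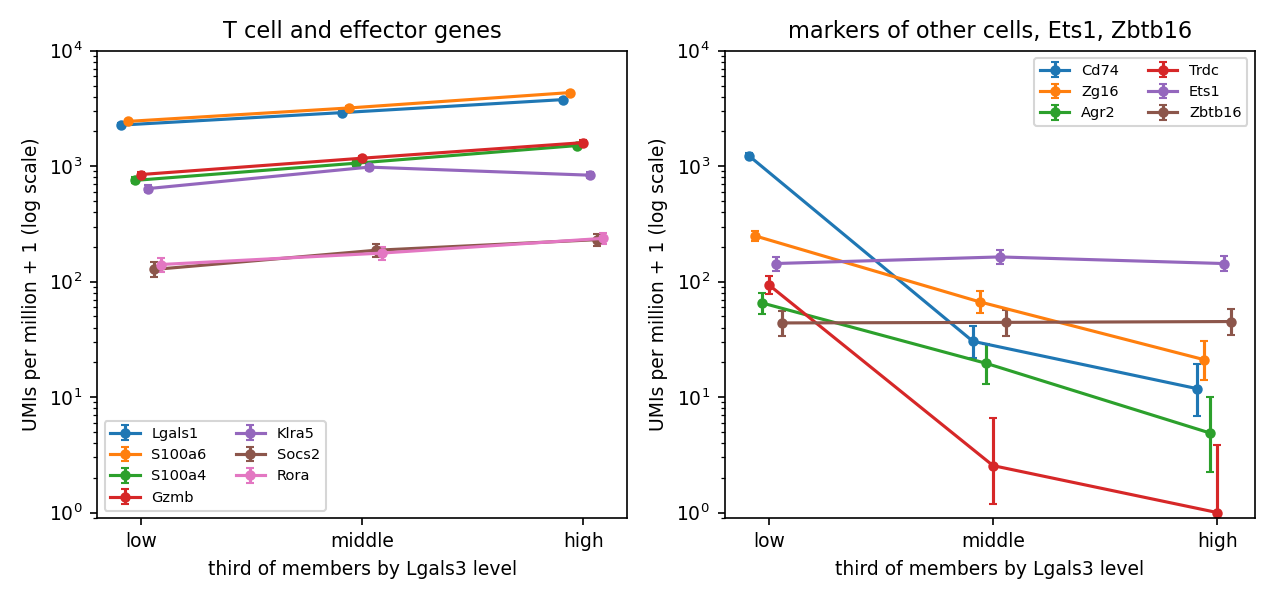
Level of genes in members split into 3 groups by Lgals3 (x axis), as CPM plus 1 on a log axis, with exact 95% counting intervals. On the left Lgals1, S100a4 and Gzmb were highest in the high group, and on the right Cd74, Zg16, Agr2 and Trdc were highest in the low group while Ets1 and Zbtb16 stayed within their intervals.

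The members also differed by cluster. In cluster 10, which held the most members, the leading genes included Klrc1, Klrc2, Styk1, Klra5, S100a4 and Ly6c2. The genes that lead a cluster set it apart by construction, so the levels that follow are a description. S100a4 stood at 1896 CPM in the members of cluster 10, 662 in cluster 2, 201 in cluster 8, 620 in cluster 11 and 674 in cluster 1. Ly6c2, a surface protein gene of memory and effector T cells, stood at 1341, 539, 102, 584 and 509 CPM in that order. Klf2, a factor of thymic egress, stood at 729, 275, 137, 261 and 246 CPM. The members of cluster 8, a cluster with Zbtb16 and Il4 among its leading genes, were lowest for all 3 of these genes.

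Other genes divided the clusters differently. Calca, which encodes calcitonin and the peptide CGRP, stood at 414 CPM in the members of cluster 10, 408 in cluster 2, 208 in cluster 8, 1588 in cluster 11 and 1574 in cluster 1. Il7r, the IL-7 receptor gene, stood at 636, 834, 815, 113 and 178 CPM. Clusters 11 and 1 had the highest Calca and the lowest Il7r of the 5. Of the Fxyd7-positive cells 27.3% lay in cluster 11, 23.8% in cluster 10 and 23.7% in cluster 1.

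**Figure D5:**
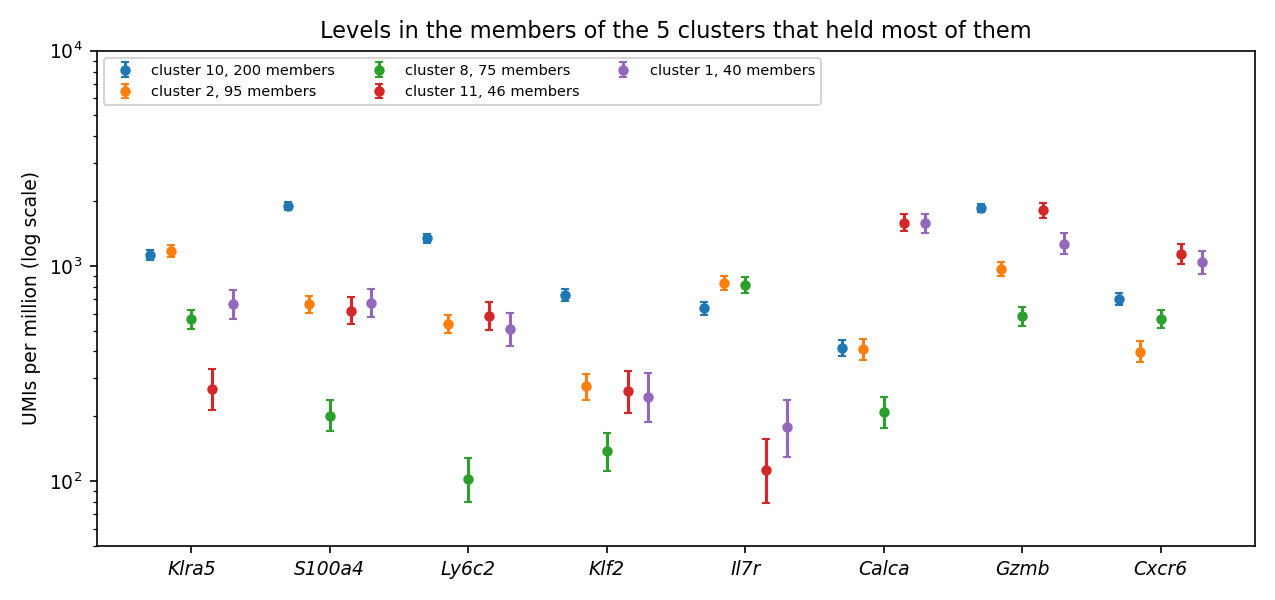
Level of 8 genes (x axis) in the members of the 5 clusters that held most of them, as CPM on a log axis with exact 95% counting intervals. Members of cluster 10 were highest for S100a4, Ly6c2 and Klf2, and members of clusters 11 and 1 were highest for Calca and lowest for Il7r.

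Fewest genes passed the size rule against the Fxyd7-positive cells. Of 5887 genes 124 were higher in members (2.11%) and 59 lower (1%). Among the genes lower in members by most were Fxyd1, Lgi4 and Fxyd3. All were on a list of genes of the Fxyd7 locus and of Calca, which had 0 of 6 genes higher and 4 lower. Since Fxyd7 itself separates the 2 populations by the rule, these values are a description. Fxyd1, a sodium pump regulator gene of the Fxyd7 family, stood at 14.4 CPM in members and 1085 in Fxyd7-positive cells, 74.7 times lower. Lgi4 stood at 8.44 and 132 CPM and Fxyd3 at 10.7 and 96.5. Calca stood at 483 and 1101 CPM, and Plin2, a lipid droplet protein gene, at 28.1 and 56.0.

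Among T cell genes the members stood apart by receptor and homing genes. Fcer1g, an adaptor chain of activating receptors, stood at 331 CPM in members and 97.2 in Fxyd7-positive cells (3.40-fold, 3.07 to 3.78). Ccr10 stood at 50.2 and 8.52 CPM, Klra7 at 123 and 53.8, Il7r at 583 and 314, Itgae, the CD103 gene of epithelial residence, at 168 and 82.5, and Itga4 at 109 and 25.2. S1pr1 and Klf2 were higher by 2.36-fold and 1.64-fold. The galectin, S100 and annexin list had 0 of 22 genes higher and 1, Anxa1, lower, and the cytotoxic list had 0 of 13 in either direction. Natural killer receptors had 4 of 16 higher and 1 lower.

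Among genes that reached 50 CPM, the 6 highest ratios belonged to genes of gut and antigen-presenting cells. Reg3b stood at 85.7 CPM in members and 4.65 in Fxyd7-positive cells, Lgals2 at 53.9 and 3.68, Cd74 at 456 and 49.6, Cd79a at 73.3 and 9.88, Fabp6 at 189 and 26.1, and Fabp2 at 279 and 41.1. Leaving out cells with marks of other cell types turned the direction of Cd74, Fabp2 and Fabp6. In T cells without marks of other types their log2 ratios were -0.28, -0.49 and -0.76, none of them past the size rule. These marks were UMIs of the B cell, myeloid and gut lists. Cd74 and Fabp6 are on these lists, so the filter acts on them directly and their turn is no separate check. Of all genes past the rule 67.8% were higher in members, or 78.7% with mitochondrial and ribosomal protein UMIs taken out of the scaling.

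The genotype comparison within the rule set the members against the 76 control cells. Ets1, the targeted gene, stood at 149 CPM in members (137 to 161), 145 in Fxyd7-positive cells and 223 in Lgals3-negative cKO cells, against 511 in control cells of the same rule (455 to 573) and 540 in control Lgals3-negative cells. All 3 cKO populations were below both control populations. The labels do not say which part of Ets1 was flanked, and 3′ reads can lie outside it, so the level does not measure the deletion. With so few control cells counting error is large, so counts are given for genes whose interval also excluded a ratio of 1, a condition added after the data were seen. Of 6066 genes 807 were higher in members (13.3%) and 399 lower (6.58%). Without that condition they were 1090 (18%) and 573 (9.45%).

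Calca was absent from the 76 control cells. It stood at 483 CPM in members, at least 92.6-fold above the limit of 3 UMIs over the group that stands for a count of 0, and at 8.18 CPM in control Lgals3-negative cells. Nebl, an actin-binding protein gene, was at least 15.9-fold higher by the same limit. Tnfrsf9, the 4-1BB costimulatory receptor gene, stood at 132 CPM in members and 5.22 in control cells, and Itgb1, the beta-1 integrin gene, at 673 and 228. Itgax stood at 52.1 and 1.74 CPM. Fabp2, Fabp6, Apoa1 and Reg3b, all gut genes, had no UMI in the control cells and were at least 53.5-fold, 36.3-fold, 20.9-fold and 16.4-fold higher. The gut epithelium list summed to 741 CPM in members and 41.7 in those control cells, in which 14 of its 18 genes were at 0, and its part in other differences was not tested.

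The galectin, S100 and annexin list was higher in 14 of 22 genes and lower in 0. Lgals1 stood at 2959 CPM in members and 887 in control cells, S100a6 at 3292 and 1577, and S100a4 at 1093 and 683. Natural killer receptors were higher in 8 of 18 and lower in 4. Klra5 was 5.33-fold higher (4.33 to 6.71) and Klra4 6.02-fold, while Klra9 stood at 119 CPM in members and 320 in control cells. Gzmb stood at 1192 and 511 CPM, whereas Gzma, Ifng and Ccl4 were lower, at 187, 96.8 and 2.73 CPM in members and 654, 202 and 36.5 in control cells. Tbx21 stood at 130 and 99.1 CPM, a ratio of 1.30 (0.995 to 1.75), and Zbtb16 at 43.5 and 45.2 CPM.

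Genes induced by T cell receptor signals, many of them immediate early genes, were lower in members. Of 22 that reached 20 CPM, 12 were lower and 0 higher, with a median log2 ratio of -0.66 against 0.11 over all genes. Junb, an AP-1 subunit gene, stood at 782 CPM in members and 1588 in control cells, Dusp1, a phosphatase gene, at 410 and 835, Fosb at 163 and 372, and Nr4a1, an orphan receptor gene, at 14.9 and 47.0. The control Lgals3-negative cells had 1641 CPM of Junb, 874 of Dusp1, 369 of Fosb and 24.2 of Nr4a1. Heat shock genes moved with them: of 8 on the dissociation stress list 4 were lower and 0 higher, and the list summed to 2971 CPM in members and 3847 in control cells. Median mitochondrial shares were 2.70% and 4.22%. The part of tissue handling in this difference was not tested.

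Among genes that reached 50 CPM, the 6 lower in members by the largest ratios were Gpr132, Gmfg, Atp2b4, Rasgrp2, Ass1 and Ifi208. Gpr132, a G protein-coupled receptor gene, stood at 6.70 CPM in members and 57.4 in control cells of the same rule, 8.53 times lower. Gmfg, an actin regulator gene, stood at 41.5 and 323 CPM. Rasgrp2, a Rap activator gene, stood at 12.7 and 87.0 CPM, whereas Rasgrp1, the related Ras activator gene, was higher, at 251 and 74.8. Atp2b4, Ass1 and Ifi208 stood at 8.94, 7.70 and 18.6 CPM in members and 62.6, 50.4 and 110 in control cells. In Fxyd7-positive cells the 6 lay between 0.968 CPM for Ass1 and 20.1 for Ifi208, and in Lgals3-negative cKO cells between 23.4 CPM for Atp2b4 and 163 for Gmfg. Ass1 stood at 50.8 CPM in the Lgals3-negative cKO cells, near the 50.4 of the control cells.

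Several other lists had genes past the rule in both directions, unlike those of oxidative phosphorylation and glycolysis. Transcription factors were higher in 9 of 22 genes and lower in 4, with Bach2 and Zeb2 3.03-fold and 2.41-fold higher and Klf2 lower at 488 against 845 CPM. Migration genes were higher in 10 of 25 and lower in 2, costimulation genes in 5 of 10 and 1, and cytokine receptor and signalling genes in 4 of 18 and 3. T cell receptor complex genes were higher in 4 of 17 and lower in 1, oxidative phosphorylation genes in 1 of 20 and 0, and glycolysis genes in 0 of 12 and 3. Taking mitochondrial and ribosomal protein UMIs out of the scaling shifted the log2 ratios of the named genes by a median of -0.16, and of the genes past the size rule alone 45.6% were then higher, in place of 65.5%.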

How the data were processed

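The deposited values are whole-number UMI counts per gene and cell barcode for 32285 features. Per the labels' protocols, YFP+ thymus cells pooled from 2 mice per genotype went into 10x 3′ libraries. The submitters' processing notes name Cell Ranger 2.1.1 and mm10, while the matrix headers, as the authors deposited them, name software version 3.0.0, a difference that was not resolved. No source used here names the annotation. The lowest depth of a deposited barcode was 500 UMIs.

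Counts were summed over the cells of a population and divided by the sum over all genes to give CPM, with exact Poisson intervals. Ratios have exact conditional binomial intervals, the point ratio being taken after adding 0.5 UMIs to each sum, and shares have exact Clopper-Pearson intervals, all at 95%. For a sum of 0 the limit used was 3 counts. Intervals cover counting error only, and with 1 library per genotype no test was made. Reads shared between near-identical genes, such as those of the Klra family, or overlapping genes make their counts uncertain.

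Genes were named by a rule: the top 12 in each direction against Lgals3-negative cells, and the top 6 in each other comparison, among those past the size rule that reached 50 CPM. It skipped genes of the selection, genes without a settled name, sex-linked genes, antigen receptor segments and the mitochondrial and ribosomal protein classes. Also named are a set of genes fixed whatever their values, up to 4 genes per list, and markers of other cell types. Some further genes of the lists were chosen after their values were seen. The members, lists and rules were chosen with earlier results of these data known. Genes that the rule names but the text does not describe are covered by the counts, and the values of some genes are not reported here.

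The cKO cells were clustered at 10000 UMIs per cell on 2000 variable genes, with 30 components, 15 neighbours and Leiden resolution 0.8. Doublets were neither called nor removed, and 1 alternative leaves out the 10% of cells with most UMIs. The ratios were run on simulated sums drawn from the Poisson model that the intervals assume. That run does not cover genes whose UMIs lie in few cells. Alternatives covered scaling, depth, filters, thresholds, other cell types and clustering. Clustering used scanpy 1.11.5 with igraph 0.11.9, figures matplotlib 3.10.9 and all else scipy 1.17.1, pandas 2.3.3 and numpy 2.4.6 under Python 3.11.15.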

Additional observations from a re-analysis of the deposited data

Results flagged for a closer look

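For 9 named or listed genes the difference between cells with and without Lgals3 went opposite ways in the 2 libraries. Each passed the size rule in both libraries, and the interval of its ratio excluded 1 in both. This difference between the libraries was not tested, and the cells compared differ in makeup between them. As log2 ratios of Lgals3-positive over Lgals3-negative cells, in the cKO and then the control library, Ccl3 stood at -4.97 and 1.66, Plac8 at -1.87 and 0.97, and Nr4a1 at -1.44 and 0.98. H2-Ab1 stood at -2.52 and 0.74, Mki67 at -1.14 and 1.74, Rasgrp2 at -1.09 and 0.62, and Gzma at -0.63 and 1.33. Cst7 and Klra6 went the other way, at 1.44 and -0.85 and at 0.95 and -0.60. The Ccl3 values rest on 103 UMIs in 8 Lgals3-negative cKO cells and 18 UMIs in 3 control cells of the same rule, and the H2-Ab1 value of those control cells on 66 UMIs in 2 cells. Within clusters 1, 2, 8, 10 and 11 of the cKO library Gzma was 4.26-fold higher and Klra6 lower (ratio 0.526) in members, the direction of the control library. There Cst7 (134 and 110 CPM) and H2-Ab1 (ratio 1.47) did not pass the size rule, nor did Mki67 and Rasgrp2 (0.462 each), while Ccl3, Plac8 and Nr4a1 stayed lower.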

How the results depend on the processing

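No paired analysis was possible because each genotype is 1 library and the labels give no replicate numbers. Against Lgals3-negative cells the main counts were 566 higher and 599 lower. They became 214 and 340 at a ratio of 2 and 315 and 245 at 50 CPM, and the lower count 1022 at 10 CPM, 942 without mitochondrial and ribosomal protein genes in the total, and 1102 in T cells without marks of other types. Against Fxyd7-positive cells 124 and 59 became 67 and 7 at a ratio of 2, 271 and 150 at 10 CPM, 37 and 25 at 50 CPM, and 210 and 181 thinned to 3000 UMIs. The higher count was 211 without mitochondrial and ribosomal protein genes, and the lower 93 without B cell or myeloid marker cells. Against control cells 1090 and 573 became 414 and 213 at a ratio of 2 and 481 and 213 at 50 CPM. The lower count there was 961 at 10 CPM, 1180 without mitochondrial and ribosomal protein genes, 990 thinned, 901 with at least 4 Lgals3 UMIs and 1040 with at least 5 per 10000.

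The share of members was 20.2% when cells were thinned before the rule and 14.2% with at least 4 Lgals3 UMIs. The control share was 1.65% with at least 500 UMIs per cell and 0.825% with at least 4 Lgals3 UMIs. The cluster with most members held 16.2% of them at resolution 1.2 and 32.5% with 20 components.

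Over all settings 33 log2 ratios of single genes changed direction, none of them under another scaling. None of the 33 passed the size rule in the other direction, 27 had an interval that holds a ratio of 1, and 7 were set against a count of 0, so that their value rests on the 0.5 UMIs added. Against Lgals3-negative cells, Agr2 became 3.11, Ccl6 0.79, Itln1 1.53, Mptx1 0.59 and Spink4 0.40 with at least 3 CD3 UMIs. Without epithelial marker cells Agr2 became 1.70, Itln1 2.67 and Spink4 0.60. Ifit3b became 0.12 when the other cells were also at 0 for the other rule genes. Within clusters 1, 2, 8, 10 and 11, Agr2 became 2.82, Il2ra 0.14, Itln1 1.23, Mptx1 0.70, Spink4 0.84, Tnfrsf4 0.20 and Usp18 1.62, of which Agr2, Itln1, Mptx1 and Usp18 had no UMI in the Lgals3-negative cells. In T cells without marks of other types Agr2 became 1.27, Ifit3b 0.53, Itm2a -0.46 and Spink4 1.02. Against Fxyd7-positive cells, Fabp2 became -0.22, Fabp6 -0.54 and Reg3b -0.17 with at least 3 CD3 UMIs, and Fabp2 -0.51 and Fabp6 -0.61 without epithelial marker cells. Cd74 became -0.25 and Cd79a -0.32 without B cell or myeloid marker cells, and Cd79a -0.44 with at least 5 Lgals3 UMIs per 10000. In T cells without marks of other types Cd74 became -0.28, Fabp2 -0.49 and Fabp6 -0.76. Against control cells Klra3 became 0.59 without B cell or myeloid marker cells and 0.72 in T cells without marks of other types. The cause was not tested, and in T cells without marks of other types 336 members and 59 Lgals3-negative cells remained. Cells with marks of other types were found by marker lists that hold Agr2, Itln1, Mptx1, Fabp6, Cd74 and Cd79a, so those filters act on these genes directly.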
